A study of Mus musculus with 6 samples.

Results

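Spliceosome and heterogeneous nuclear ribonucleoprotein (hnRNP) genes were chosen by symbol. They comprised every row whose symbol began with Snrp, Sf3a or Sf3b and a number, Prpf and a number, Srsf and a number, or Hnrnp, without symbols ending in -ps. The rule gave 65 of the 15686 genes in the table, with 12 Snrp, 9 Sf3, 13 Prpf, 11 Srsf and 20 Hnrnp symbols. RNA-seq was done on mouse spleen CD4+ T cells, purified with a commercial kit, after haematopoietic stem cell transplantation (HSCT). There were 3 libraries labelled allo-HSCT (C57BL/6 donor, Balb/c host) and 3 labelled syn-HSCT (Balb/c donor, Balb/c host). All 6 hosts were thus Balb/c, and the labels give no age, sex, conditioning or time after transplantation. The series set out to compare gene expression between allogeneic and syngeneic CD4+ T cells. No label ties a replicate to its own animal, so each p-value reflects library-to-library spread that may be technical.

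Genes that differ between the donor strains went against the donor labels. Trbv26, a T cell receptor beta segment whose T cells are deleted by an endogenous superantigen in BALB/c mice, averaged 0.402 ± 0.438 FPKM (fragments counted per exon length and sequencing depth) in the libraries labelled allo-HSCT and 56.5 ± 3.25 FPKM in those labelled syn-HSCT (SD, n = 3 each). Ighg2c, a C57BL/6 immunoglobulin constant gene, averaged 16.3 ± 0.247 FPKM in the libraries labelled allo-HSCT and 9605 ± 270 FPKM in those labelled syn-HSCT (SD, n = 3 each). H2-Ea-ps, whose promoter is deleted in C57BL/6, and Ly6a, which is high in C57BL/6 T cells, likewise stood opposite to the donor labels. Sample titles carry S for the libraries labelled allo-HSCT and A for those labelled syn-HSCT. The characteristics labels define the groups here, and each direction is that of the libraries so labelled.

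The spliceosome removes introns from pre-mRNA. It is built from small nuclear ribonucleoproteins (snRNPs), each a small RNA held in a ring of Sm proteins with proteins of its own. The U1 snRNP marks the 5′ splice site, the U2 snRNP with its SF3A and SF3B complexes marks the branch site, and the U4/U6.U5 tri-snRNP then joins and is rearranged for catalysis. Serine- and arginine-rich (SR) proteins mostly favour the use of nearby splice sites, and hnRNP proteins often oppose it. T cell activation is known to change splicing, and hnRNP L-like protein (Hnrnpll) controls the exons of the phosphatase CD45 in mouse T cells.

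The promoters of 4 genes that have 1 RefSeq start each are shown. Hnrnpab had the largest rise of the 64 tested members, Srsf1 was a risen SR protein gene, and Srsf5 and Prpf39 had the largest falls. The 150 bases before the start are given 5′ to 3′ on the gene's strand, from RefSeq (build GRCm38.p6). Capitals mark motifs on either strand. The motif searched for as an NF-Y box was CCAAT. The E-box was CACGTG in this search. The ETS site was written as CCGGAAG here. The TATA box was searched for as TATAAA. The GC box was searched for as GGGCGG.
Hnrnpab, chr11:51606882-51607031, minus strand: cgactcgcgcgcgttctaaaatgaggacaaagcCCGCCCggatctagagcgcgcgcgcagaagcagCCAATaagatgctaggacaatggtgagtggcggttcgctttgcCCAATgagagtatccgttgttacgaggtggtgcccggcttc
Srsf1, chr11:88047223-88047372, plus strand: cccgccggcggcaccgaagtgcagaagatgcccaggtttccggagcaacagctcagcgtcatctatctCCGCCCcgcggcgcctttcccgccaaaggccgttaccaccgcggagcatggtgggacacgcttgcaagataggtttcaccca
Srsf5, chr12:80945349-80945498, plus strand: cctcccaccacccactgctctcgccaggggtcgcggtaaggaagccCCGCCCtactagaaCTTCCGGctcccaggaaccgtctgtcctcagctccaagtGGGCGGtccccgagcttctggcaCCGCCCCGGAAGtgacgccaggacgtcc
Prpf39, chr12:65036184-65036333, plus strand: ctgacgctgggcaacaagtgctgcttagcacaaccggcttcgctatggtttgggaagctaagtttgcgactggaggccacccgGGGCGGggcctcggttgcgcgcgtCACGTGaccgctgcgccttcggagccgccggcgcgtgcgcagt
The Srsf5 stretch holds a GC box and an ETS site that share 1 base, and the Prpf39 stretch holds an E-box. RefSeq promoters were found for 56 of the 65 members, in 73 windows of 250 bases before to 50 bases after a start. CCGGAAG occurred in 34.2% of these windows, against 8.86% of the 32851 windows of all genes. GGGCGG occurred in 67.1% against 35.7%, CACGTG in 15.1% against 7.15% and CCAAT in 47.9% against 37.4%. TATAAA occurred in 8.22% of the members' windows, against 13.6% of all windows. The windows of all genes were not limited to the 13235 genes tested here, so these shares were not matched for expression. A match describes the letters in these windows and shows no binding.

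Most of these genes were moderately higher in the libraries labelled allo-HSCT. Of the 64 members that passed the filter of at least 1 FPKM in 3 libraries, 52 (81.2%) were called higher and 7 (10.9%) lower (limma on log2(FPKM + 1), adjusted p under 0.05 over all 13235 genes tested). Over all genes tested, 40.7% were called higher, 26.6% lower and 67.4% in either direction, so the surplus over the background was in the higher calls. The median log2 fold change was 0.40 for the members and 0.09 for all genes. Taken without sign, the median change was 0.40 for the members and 0.36 for all genes. This background was not matched for level, and the members' median level was at its 87.1 percentile. The changes were narrow in size, between -0.34 and 0.92, and no member reached 1 on the log2 scale, a size passed by 1765 (13.3%) of all genes tested. In 53 members every library labelled allo-HSCT lay above every library labelled syn-HSCT, and in 7 every one lay below, where 43.4% and 29.1% of all genes did so. The remaining 4 tested members overlapped between groups.

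**Figure D1:**
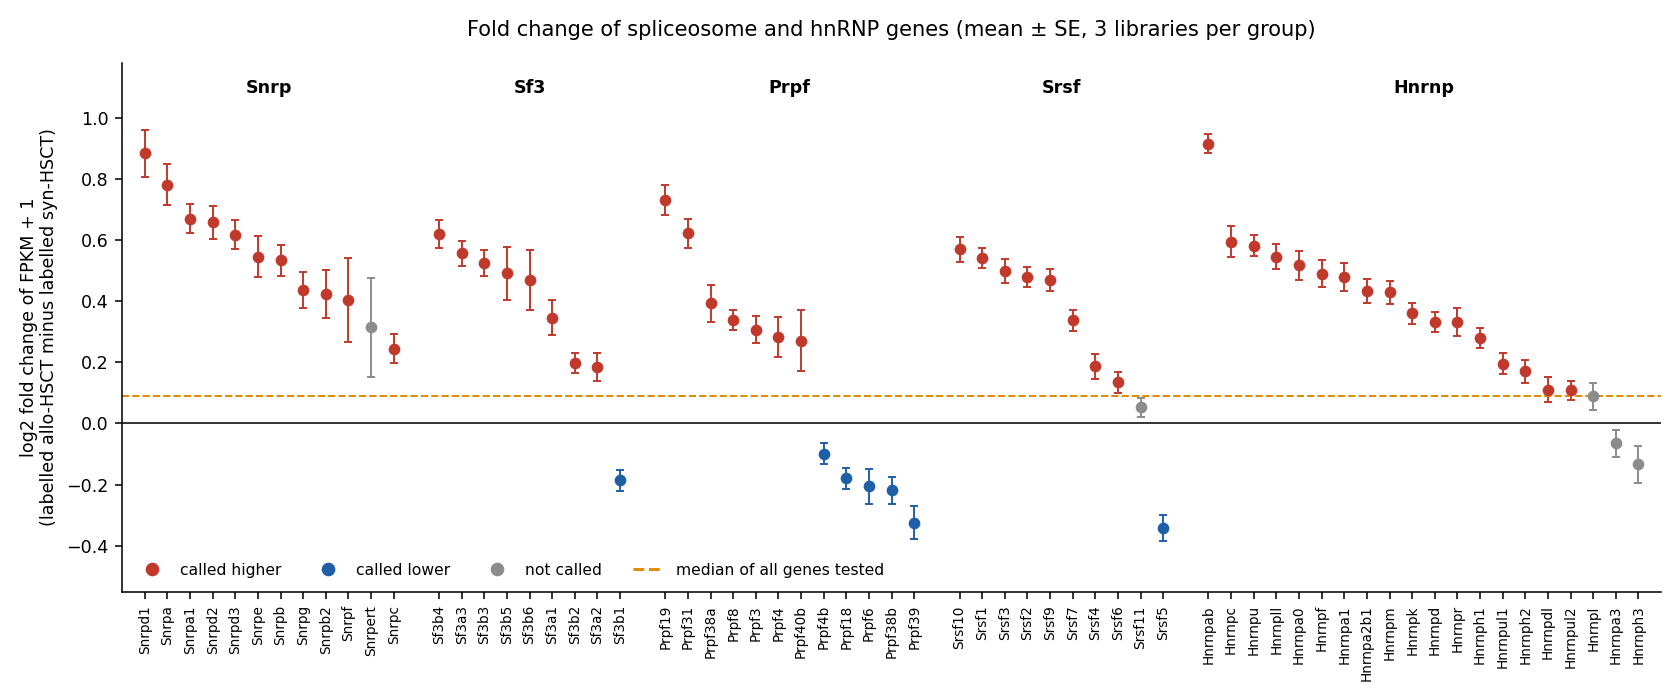
Log2 fold change of FPKM + 1 (vertical axis, libraries labelled allo-HSCT minus those labelled syn-HSCT, ± SE, 3 libraries per group) of 63 of the 64 tested members by family, with the median of all genes tested dashed. Snrp genes lie above 0, whereas Sf3b1, Srsf5 and 5 Prpf genes are called lower as deposited. These 7 genes turn positive only when libraries are scaled to the CD3 chains.

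The direction of the lower calls changed only when the libraries were scaled to the CD3 chains. Immunoglobulin transcripts made up 9.03 to 9.28% of all FPKM in the libraries labelled allo-HSCT and 24.8 to 26.1% in those labelled syn-HSCT. Scaling to equal upper quartiles or removing the median change left 44 members higher and 9 lower. Of all 13235 genes tested, 4563 were called higher and 4332 lower under equal upper quartiles. With the median change removed, 4556 were called higher and 4367 lower. A further rescaling left immunoglobulin genes and the other-cell markers given below out of each library's total. All other transcripts of those cells stayed in that total, so this rescaling does not correct for other cells. The CD3 chains (signalling subunits of the T cell receptor) were also set to an equal geometric mean in each library. This moved the median log2 fold change of all genes to 1.02 and that of the members to 1.44. Under it 64 members were called higher and 0 lower, beside 11404 higher and 546 lower of all 13235 genes tested. The members' median exceeded that of all genes by 0.31 as deposited, and by 0.30 to 0.42 under the 5 other scalings. All 52 higher members stayed above 0 in each of these scalings, and 44 of them were called higher in each. The 7 lower members stayed below 0 in each scaling but that to the CD3 chains. There their log2 fold changes were 0.679 to 0.961, below the median of 1.02 of all genes. In a bulk sample, fewer cells of a type and less RNA per cell cannot be told apart.

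**Figure D2:**
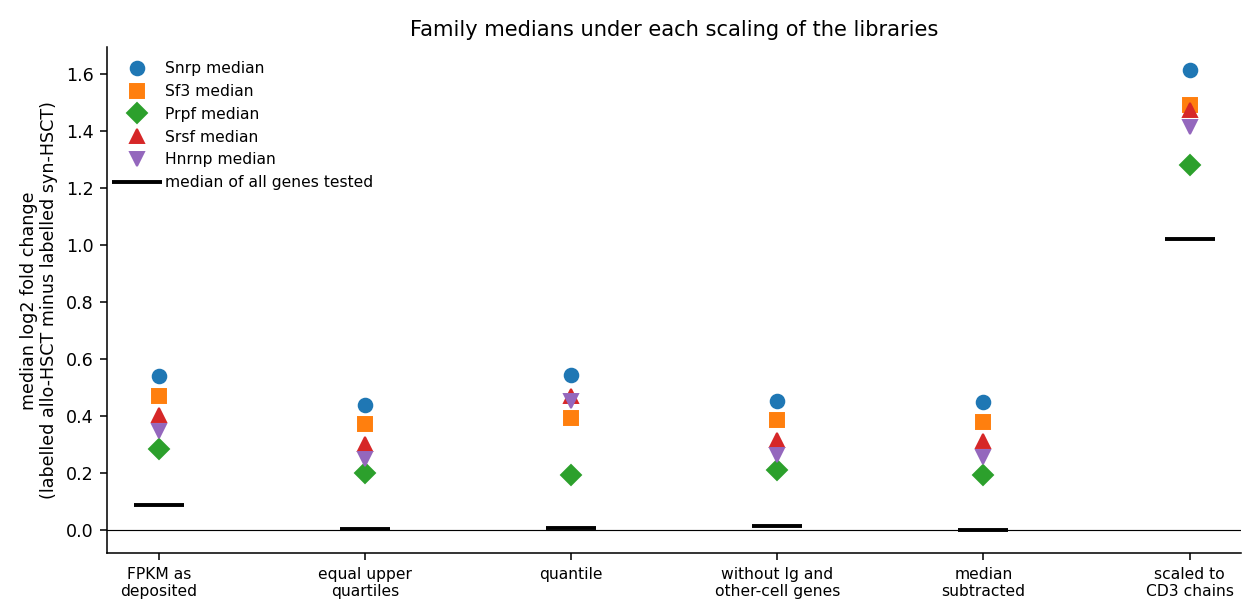
Median log2 fold change (vertical axis, libraries labelled allo-HSCT minus those labelled syn-HSCT) of each family and of all genes tested, under each scaling of the libraries (horizontal axis). Each family median lies above the median of all genes under each of the 6 scalings, and scaling to the CD3 chains lifts the median of all genes to 1.02.

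The members were among the more abundant transcripts of the table. Their median level was at the 87.1 percentile of all genes tested, and 27 of the 64 were in the highest 10%. Their summed FPKM took 1.23%, 1.25% and 1.24% of the total in the libraries labelled allo-HSCT, against 0.861%, 0.838% and 0.851% in those labelled syn-HSCT. Without immunoglobulin transcripts these shares were 1.36%, 1.38% and 1.37% in the libraries labelled allo-HSCT, against 1.15%, 1.13% and 1.15% in those labelled syn-HSCT. The groups did not overlap on either basis. Replicates of a group were close, with a median coefficient of variation of 3.02% over members.

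The 7 genes of the Sm ring, the core that each of the U1, U2, U4 and U5 RNAs carries, were all called higher, with a median log2 fold change of 0.55. The Sm ring is loaded on the RNA in the cytoplasm by the SMN complex. Snrpd1, 1 of its subunits, had 108, 111 and 106 FPKM in the libraries labelled allo-HSCT, against 56.7, 65.7 and 53.1 FPKM in those labelled syn-HSCT. The lowest library labelled allo-HSCT was well above the highest labelled syn-HSCT. Its log2 fold change of 0.88 (SE 0.076, limma adjusted p = 6.44e-05) was the largest in the Snrp family. Snrpb, which forms the SmB proteins of the ring, had 104, 111 and 118 FPKM in the libraries labelled allo-HSCT, against 75.5, 74.3 and 78.8 FPKM in those labelled syn-HSCT, with no overlap (log2 fold change 0.53, SE 0.052, limma adjusted p = 0.000114). Snrpg had 58.8, 60.9 and 61.0 FPKM in the libraries labelled allo-HSCT, against 42.2, 48.5 and 42.2 FPKM in those labelled syn-HSCT (log2 fold change 0.44, SE 0.058, limma adjusted p = 0.000544). The other ring genes, Snrpd2, Snrpd3, Snrpe and Snrpf, rose by 0.66, 0.62, 0.55 and 0.41 on the log2 scale. Snrpf spread most among these, with an adjusted p of 0.0355 in limma, and was not called after scaling to equal upper quartiles (adjusted p = 0.0879). Its limma adjusted p was 0.0529 to 0.106 without allo-HSCT replicate 2 or 3 or syn-HSCT replicate 1 or 3, each left out in turn.

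The 4 proteins specific to U1 and U2 were called higher too. Snrpa encodes a U1 protein that binds a stem-loop of the U1 RNA. It had 24.96, 27.2 and 26.7 FPKM in the libraries labelled allo-HSCT, against 13.9, 14.5 and 16.4 FPKM in those labelled syn-HSCT (log2 fold change 0.78, SE 0.067, limma adjusted p = 6.28e-05). The groups did not overlap, although 11.03% of the gene's exon bases overlap another gene. Snrpa1 and Snrpb2, which form a pair on the U2 RNA, rose by 0.67 and 0.42 on the log2 scale. Snrpc, a U1 protein that helps U1 to hold the 5′ splice site, had the smallest change in the family at 0.24. Snrpert, which GENCODE annotates as a processed pseudogene and which resembles Snrpe, was not called, with 43.0, 29.3 and 37.0 FPKM in the libraries labelled allo-HSCT and 27.0, 34.6 and 25.4 FPKM in those labelled syn-HSCT. Its groups overlapped, and it was called higher without allo-HSCT replicate 2 (0.46, limma adjusted p = 0.0327) or syn-HSCT replicate 2 (0.44, limma adjusted p = 0.0468).

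SF3A and SF3B bind the U2 snRNP and hold it at the branch site. The 3 SF3A genes and 5 of the 6 SF3B genes were called higher, and Sf3b1 was called lower. Sf3b4, an RNA-binding SF3B subunit, had 40.7, 38.7 and 36.7 FPKM in the libraries labelled allo-HSCT, against 24.2, 25.4 and 24.8 FPKM in those labelled syn-HSCT (log2 fold change 0.62, SE 0.046, limma adjusted p = 3.19e-05). Sf3a3, an SF3A subunit, had 37.7, 39.6 and 39.3 FPKM in the libraries labelled allo-HSCT, against 26.8, 24.9 and 26.7 FPKM in those labelled syn-HSCT (log2 fold change 0.56, SE 0.041, limma adjusted p = 3.34e-05). In both genes the groups were separated by more than 10 FPKM. Sf3b2, the most abundant of the 9 Sf3 genes, averaged 132 ± 0.431 FPKM in the libraries labelled allo-HSCT and 115 ± 3.22 FPKM in those labelled syn-HSCT (SD, n = 3 each). Its rise was small at 0.20, and Sf3a2 rose by 0.18 but lost its call under equal upper quartiles (0.09, adjusted p = 0.140).

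Sf3b1 encodes the subunit that clamps the branch site and that is often mutated in human myelodysplasia. It lies at chr1:54985169-55027481 on the minus strand (GRCm38, GENCODE M21). Its level was 63.1, 63.3 and 64.0 FPKM in the libraries labelled allo-HSCT, against 75.1, 71.1 and 70.8 FPKM in those labelled syn-HSCT. The libraries labelled allo-HSCT were all lower, but by a small margin (log2 fold change -0.19, SE 0.034, limma adjusted p = 0.00269). Scaled to the CD3 chains the difference was 0.89, the least positive value in the Sf3 family.

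**Figure D3:**
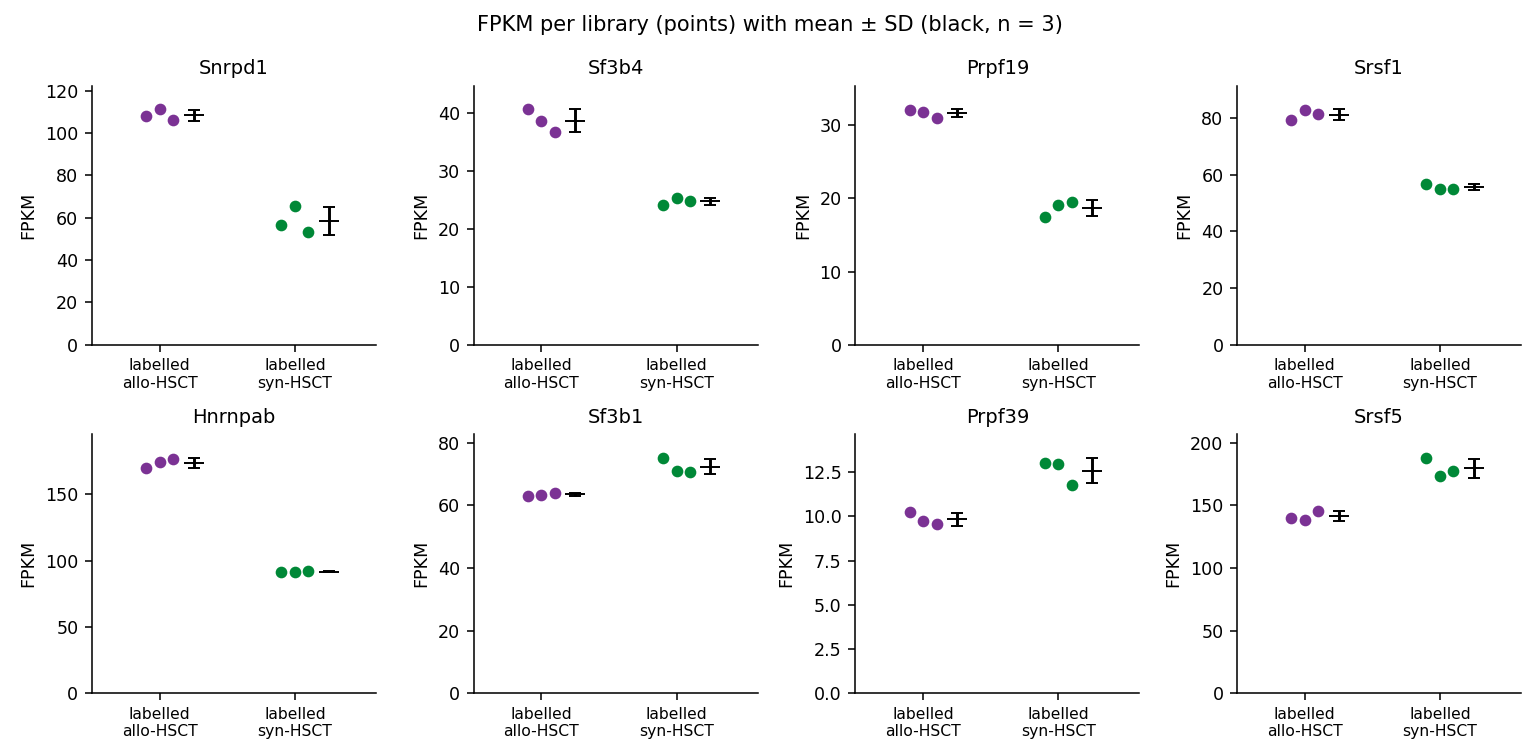
FPKM (vertical axis) of 8 genes in each library (points), with mean ± SD (n = 3), for libraries labelled allo-HSCT and syn-HSCT. Snrpd1, Sf3b4, Prpf19, Srsf1 and Hnrnpab are higher in the libraries labelled allo-HSCT, and Sf3b1, Prpf39 and Srsf5 are lower as deposited but positive after scaling to the CD3 chains, with no overlap between groups as deposited.

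The Prpf genes, named after yeast pre-mRNA processing factors, were the most divided family, with 8 called higher and 5 lower, although the 5 lower ones turned positive under scaling to the CD3 chains. Prpf19, the ubiquitin ligase of the Prp19 complex that stabilises the active spliceosome, had 32.1, 31.8 and 31.0 FPKM in the libraries labelled allo-HSCT, against 17.4, 19.0 and 19.6 FPKM in those labelled syn-HSCT. The groups did not overlap (log2 fold change 0.73, SE 0.049, limma adjusted p = 2e-05). Prpf31, which joins the U4/U6 particle to U5, had 17.4, 17.1 and 17.0 FPKM in the libraries labelled allo-HSCT, against 10.4, 10.5 and 11.5 FPKM in those labelled syn-HSCT (log2 fold change 0.62, SE 0.047, limma adjusted p = 3.52e-05). Prpf8, the scaffold of the catalytic centre and the most abundant of the family, averaged 95.7 ± 0.982 FPKM in the libraries labelled allo-HSCT and 75.5 ± 2.11 FPKM in those labelled syn-HSCT (SD, n = 3 each), a log2 fold change of 0.34. Prpf3 and Prpf4, proteins of the U4/U6 particle, rose by 0.31 and 0.28.

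The 5 lower Prpf genes had roles at different steps. Prpf39 is a partner of the U1 snRNP and lies at chr12:65036333-65063386 on the plus strand (GRCm38). It had 10.3, 9.74 and 9.55 FPKM in the libraries labelled allo-HSCT, against 13.0, 13.0 and 11.8 FPKM in those labelled syn-HSCT (log2 fold change -0.32, SE 0.054, limma adjusted p = 0.00166). Prpf38b, a relative of the spliceosome activation factor Prpf38a, had 37.2, 40.5 and 40.1 FPKM in the libraries labelled allo-HSCT, against 44.8, 47.5 and 45.3 FPKM in those labelled syn-HSCT (log2 fold change -0.22, SE 0.045, limma adjusted p = 0.00425). In both genes every library labelled allo-HSCT lay below every library labelled syn-HSCT. Prpf6, a bridge within the tri-snRNP, fell by 0.21 on the log2 scale, and Prpf18, which acts in the second catalytic step, fell by 0.18. Prpf4b, a kinase of the spliceosome, fell by 0.10 with a limma adjusted p of 0.036. The limma adjusted p of Prpf6 was 0.0517 to 0.0554 without allo-HSCT replicate 1 or 2 or syn-HSCT replicate 1, and that of Prpf4b was 0.0614 to 0.114 without allo-HSCT replicate 2 or 3 or syn-HSCT replicate 1 or 2. Of the tri-snRNP and activation genes as a whole, 5 rose and 3 fell, where the falls were those of Prpf6, Prpf38b and Prpf4b. Prpf40b, another U1 partner, was low, at 2.35, 2.42 and 2.54 FPKM in the libraries labelled allo-HSCT and 1.90, 1.52 and 2.15 FPKM in those labelled syn-HSCT, and its limma adjusted p was 0.0466. That call was lost without any 1 library other than syn-HSCT replicate 3 (limma adjusted p = 0.0797 to 0.119).

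Of the 10 tested Srsf genes, which encode SR proteins and relatives, 8 were called higher, Srsf5 lower and Srsf11 neither. Srsf1, the prototype SR protein, had 79.5, 83.1 and 81.5 FPKM in the libraries labelled allo-HSCT, against 56.9, 55.1 and 54.9 FPKM in those labelled syn-HSCT. These groups were over 20 FPKM apart (log2 fold change 0.54, SE 0.033, limma adjusted p = 1.33e-05). Srsf10, an SR protein that acts as a splicing repressor when dephosphorylated, had 35.9, 38.0 and 35.3 FPKM in the libraries labelled allo-HSCT, against 25.003, 24.0 and 23.6 FPKM in those labelled syn-HSCT (log2 fold change 0.57, SE 0.042, limma adjusted p = 3.15e-05). Srsf2, Srsf3 and Srsf9 rose by 0.48, 0.50 and 0.47. Srsf7, a shuttling SR protein and the second most abundant of the family, averaged 133 ± 2.70 FPKM in the libraries labelled allo-HSCT and 105 ± 2.55 FPKM in those labelled syn-HSCT (SD, n = 3 each), a rise of 0.34. The rises of Srsf4 and Srsf6 were 0.19 and 0.14, and neither call held under equal upper quartiles (adjusted p = 0.0827 and 0.394).

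Srsf5, which lies at chr12:80945504-80950507 on the plus strand (GRCm38), was the most abundant Srsf gene and had the largest fall of the 64 tested members as deposited. It had 140, 139 and 146 FPKM in the libraries labelled allo-HSCT, against 188, 173 and 177 FPKM in those labelled syn-HSCT. The highest of the libraries labelled allo-HSCT lay below the lowest of those labelled syn-HSCT (log2 fold change -0.34, SE 0.042, limma adjusted p = 0.000372). After quantile normalization the value was -0.10 (adjusted p = 0.0406), and after scaling to the CD3 chains it was 0.74. Srsf12 was under the filter in all 6 libraries, with 0.332, 0.295 and 0.284 FPKM in the libraries labelled allo-HSCT and 0.955, 0.847 and 0.685 FPKM in those labelled syn-HSCT. These values rest on 14 to 51 implied reads a library, and the gene was called lower when no filter was used (log2 fold change -0.49, limma adjusted p = 0.00667).

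SR protein genes are known to carry poison exons, whose inclusion sends the transcript to nonsense-mediated decay (NMD). In GENCODE M21, 9 of the 10 tested Srsf genes (90%) had an annotated NMD transcript, against 1 of the 9 Sf3 genes (11.1%). Over the 63 protein-coding members the share was 49.2%, and over all protein-coding genes tested 29.7%. The number of annotated transcripts also differed, with a median of 7.5 for Srsf genes and 4 for Sf3 genes. It was 6 for the protein-coding members and 5 for all protein-coding genes tested, and the shares were not adjusted for it. Values per gene sum productive and NMD transcripts, so a change in poison exon use cannot be read from them.

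The Hnrnp genes held the most abundant members, with 17 of 20 called higher and 0 lower, or 14 to 17 higher and 2 lower (Hnrnpa3 and Hnrnph3) under the quantile, upper-quartile, rescaled and median-subtracted scalings. Hnrnpab, a protein that binds AU-rich RNA and also single-stranded DNA, lies at chr11:51600100-51606847 on the minus strand (GRCm38). It had 170, 174 and 177 FPKM in the libraries labelled allo-HSCT, against 91.3, 91.4 and 92.1 FPKM in those labelled syn-HSCT. Its 3 libraries labelled syn-HSCT were within 1 FPKM of each other, and the log2 fold change was 0.92 (SE 0.030, limma adjusted p = 1.21e-06). Its exons share 29.1% of their bases with the neighbouring gene Phykpl, so some of its reads may belong there. Hnrnpc, which binds uridine tracts, had 119, 120 and 114 FPKM in the libraries labelled allo-HSCT, against 83.4, 74.9 and 74.7 FPKM in those labelled syn-HSCT (log2 fold change 0.59, SE 0.051, limma adjusted p = 6.22e-05).

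Hnrnpa1, a repressor that binds UAGG-like motifs, was the most abundant member. It had 308, 318 and 319 FPKM in the libraries labelled allo-HSCT, against 219, 239 and 220 FPKM in those labelled syn-HSCT, with no overlap (log2 fold change 0.48, SE 0.045, limma adjusted p = 0.000103). Hnrnpa2b1, its close relative, had 247, 258 and 248 FPKM in the libraries labelled allo-HSCT, against 180, 192 and 184 FPKM in those labelled syn-HSCT (log2 fold change 0.43, SE 0.039, limma adjusted p = 7.6e-05). Hnrnph1, which binds G runs, averaged 152 ± 1.104 FPKM in the libraries labelled allo-HSCT and 125 ± 3.11 FPKM in those labelled syn-HSCT (SD, n = 3 each), a rise of 0.28. Hnrnpd, which binds AU-rich elements, rose by 0.33.

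Hnrnpll, the regulator of CD45 exons, was lower in level than Hnrnpl but had the larger log2 fold change. It had 11.5, 11.4 and 11.01 FPKM in the libraries labelled allo-HSCT, against 7.57, 7.29 and 7.42 FPKM in those labelled syn-HSCT (log2 fold change 0.55, SE 0.042, limma adjusted p = 3.85e-05). Hnrnpl, which binds CA repeats and targets the same CD45 exons, had 70.9, 71.8 and 73.0 FPKM in the libraries labelled allo-HSCT, against 64.6, 71.5 and 66.9 FPKM in those labelled syn-HSCT. The Hnrnpl groups overlapped, and it was not called (log2 fold change 0.09, SE 0.043, limma adjusted p = 0.111), but without syn-HSCT replicate 2 its limma adjusted p was 0.022 (0.13). Hnrnpa3 and Hnrnph3 had values of -0.06 and -0.13 and were not called (limma adjusted p = 0.236 and 0.0872), and without syn-HSCT replicate 3 the limma adjusted p of Hnrnph3 was 0.0198 (-0.19). Under the 4 scalings named above both were called lower, as with equal upper quartiles (-0.16 and -0.23, limma adjusted p = 0.0157 and 0.0122). The rises of Hnrnpdl, Hnrnpul2, Hnrnpul1 and Hnrnph2 were 0.11, 0.11, 0.20 and 0.17, and that of Hnrnpdl had an adjusted p of 0.0464. Under equal upper quartiles the calls of Hnrnpdl, Hnrnpul2 and Hnrnph2 were lost. Leaving out single libraries other than syn-HSCT replicate 1 also ended the Hnrnpdl call (limma adjusted p = 0.0664 to 0.143), and leaving out allo-HSCT replicate 1 or 3 or syn-HSCT replicate 1 or 2 ended that of Hnrnpul2 (limma adjusted p = 0.0552 to 0.0728).

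The ratio of related genes within a library is not changed by a scaling that multiplies the whole library by 1 factor, which quantile normalization does not do. Of 9 pairs tested, 8 are given. The ratio of Srsf5 to Srsf1 was 1.76, 1.67 and 1.79 in the libraries labelled allo-HSCT, against 3.30, 3.15 and 3.23 in those labelled syn-HSCT. The groups did not overlap, and the mean log2 ratio differed by -0.89. The ratio of Prpf38b to Prpf38a was 3.60, 4.13 and 4.07 in the libraries labelled allo-HSCT, against 5.58, 6.66 and 6.48 in those labelled syn-HSCT, a log2 difference of -0.66. The ratio of Hnrnpll to Hnrnpl was 0.162, 0.159 and 0.151 in the libraries labelled allo-HSCT, against 0.117, 0.102 and 0.111 in those labelled syn-HSCT, a log2 difference of 0.52. This ratio sets a weaker hnRNP transcript against an abundant one with targets in common. The ratio of Hnrnpa3 to Hnrnpa2b1 differed by -0.50 on the log2 scale. The 4 ratios of Hnrnpdl to Hnrnpd, Srsf7 to Srsf3, Hnrnph2 to Hnrnph1 and Hnrnpul2 to Hnrnpul1 differed by -0.23, -0.17, -0.11 and -0.09. Under quantile normalization the log2 fold changes of Hnrnpul2 and Hnrnpul1 were 0.19 and 0.18, so that their difference turned sign, and those of Srsf5 and Srsf1 were -0.10 and 0.56. In these 8 pairs the groups did not overlap, and each had an exact permutation p of 0.1 (two-sided), the smallest that 3 against 3 libraries can give, or 0.1125 after adjustment over the 9 pairs. None of the 8 therefore passed 0.05, and this design could not have let any pass. The share of non-overlapping ratios among other gene pairs was not computed. Of all single genes tested, 43.4% lay wholly higher and 29.1% wholly lower, so non-overlap is common in these data.

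**Figure D4:**
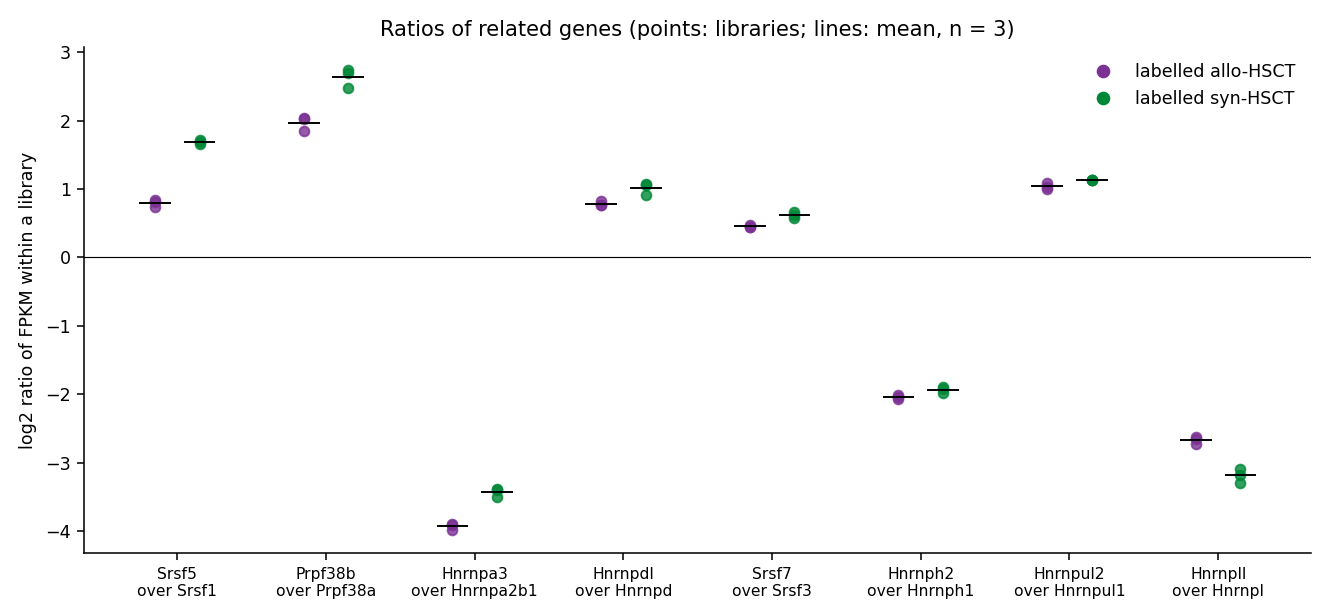
Log2 ratio of FPKM of 2 related genes within each library (points, with the mean of 3 libraries as a line), for libraries labelled allo-HSCT and syn-HSCT. The Srsf5 to Srsf1 ratio shows the widest gap, at -0.89. No pair shown overlaps between groups, and the share of non-overlapping ratios among other gene pairs was not computed.

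Processed pseudogene copies could draw reads from several members. Copies at 85% identity or more were annotated for 34 members and listed in the table for 19. In 9 members the summed FPKM of the copies exceeded 10% of the gene's own. FPKM divides by exon length, so such sums do not compare numbers of reads. Hnrnpa3 had 16 copies in the table. They summed to 103 to 120 FPKM in the libraries labelled allo-HSCT and 62.0 to 70.3 FPKM in those labelled syn-HSCT. These sums were several times the FPKM of the gene itself. With the reads of these copies added, Hnrnpa3 changed from uncalled to higher (log2 fold change 0.39, limma adjusted p = 0.000177), so its value, and its ratio to Hnrnpa2b1, are uncertain. The Snrpf copy Gm13092 had 45.9 to 59.2 FPKM in the libraries labelled allo-HSCT and 8.81 to 18.8 FPKM in those labelled syn-HSCT, and adding its reads brought Snrpf to 0.76. Srsf5, with 1 copy in the table, stayed lower at -0.33. Annotated exons of 14 members overlap another gene, over 10% of their bases in 6 (Hnrnpab, Hnrnpf, Hnrnpm, Snrpa, Sf3a2 and Srsf2). Whether reads were counted by strand is not given in the sources used here, so their values are uncertain to that degree.

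Other splicing genes, in 7 lists of the same pathway, are given list by list, and no test compared the lists. The lists held 157 tested genes besides Prpf4b, a member that also stands on the list of SR protein kinases. Totals over the lists leave Prpf4b out. The counts of each list stand beside 40.7% of all genes tested called higher and 26.6% lower. On snRNP assembly, 14 of 17 genes were called higher and 0 lower, with a median of 0.47. Ncbp2, the cap-binding subunit that marks U RNAs for export, had 32.8, 34.3 and 35.0 FPKM in the libraries labelled allo-HSCT, against 21.7, 18.1 and 17.8 FPKM in those labelled syn-HSCT (log2 fold change 0.80, SE 0.077, limma adjusted p = 0.00011). Gemin5, the SMN complex subunit that recognises U RNAs, rose by 0.78.

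On the list of U snRNP proteins and the LSm ring, which holds the U6 RNA, 17 of 25 were called higher and 4 lower, with a median of 0.30. Lsm3 and Lsm2 rose by 0.88 and 0.72. Snrnp70, a U1 protein beside that of Snrpa, fell by 0.27 (limma adjusted p = 0.00212), with 64.6, 63.0 and 65.9 FPKM in the libraries labelled allo-HSCT, against 73.7, 77.5 and 82.5 FPKM in those labelled syn-HSCT. Rnpc3, a protein of the minor U11/U12 particle, fell by 0.24, with a limma adjusted p of 0.022, or 0.0637 to 0.0688 without allo-HSCT replicate 1 or 2 or syn-HSCT replicate 1. Both had positive values after scaling to the CD3 chains.

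On the list of SR protein kinases, 0 of 8 genes were called higher and 5 lower, with a median of -0.22. All 8 were called lower under each of the 4 other scalings that keep the median of all genes near 0, with medians of -0.32 to -0.30, whereas after scaling to the CD3 chains all 8 were called higher. Clk1, a nuclear kinase that phosphorylates SR proteins, had 31.5, 31.4 and 31.2 FPKM in the libraries labelled allo-HSCT, against 46.0, 43.5 and 43.4 FPKM in those labelled syn-HSCT, with no overlap (log2 fold change -0.48, SE 0.035, limma adjusted p = 2.79e-05). Clk3, Clk2 and Clk4 fell by 0.31, 0.31 and 0.29, and Prpf4b, already described, was the other lower gene of this list. The list's median lay 0.31 below that of all genes as deposited and 0.25 below it after scaling to the CD3 chains.

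On the list of 3′ splice site and SR-related genes, 7 of 25 were called higher and 8 lower, with a median of 0.00. U2af1, which reads the AG at the 3′ splice site, and Tra2b rose by 0.38 and 0.42. Rnps1, an SR-related protein of the exon junction complex, fell to 25.7, 29.7 and 28.9 FPKM in the libraries labelled allo-HSCT, against 44.2, 46.4 and 46.6 FPKM in those labelled syn-HSCT (log2 fold change -0.69, SE 0.058, limma adjusted p = 5.96e-05). U2af1l4, a relative of U2af1, fell by 0.66. On the Prp19 complex and helicase list, 11 of 30 were called higher and 2 lower with a median of 0.09, where Ppie and Ppil1 rose by 0.65 and 0.50, and Syf2 and Slu7 fell by 0.41 and 0.24. The median of that list was close to that of all genes tested, and its calls were about even under 4 other scalings: 10 higher and 9 lower by quantile normalization, 8 and 10 with equal upper quartiles, 8 and 8 after rescaling without immunoglobulin and other-cell genes, and 8 and 10 with the median subtracted. On the exon junction complex list, 5 of 10 were called higher and 1 lower with a median of 0.10, where Alyref and Magoh rose by 0.71 and 0.59 and Upf3a fell by 0.17. The call of Upf3a was lost without any 1 library other than allo-HSCT replicate 3 (limma adjusted p = 0.051 to 0.0859).

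On the list of other RNA-binding regulators, 29 of 43 were called higher and 5 lower, with a median of 0.23. Qk rose by 0.75. Cirbp, a cold-inducible RNA-binding protein, had 11.7, 13.2 and 14.2 FPKM in the libraries labelled allo-HSCT, against 31.3, 26.9 and 29.8 FPKM in those labelled syn-HSCT. Its log2 fold change of -1.11 (SE 0.081, limma adjusted p = 3.11e-05) was the largest in size among all tested genes of the 7 lists. Scaled to the CD3 chains it stayed at -0.08, with an adjusted p of 0.432. Rbm3, the other cold-inducible protein of the list, fell by 0.49. Apart from Cirbp, the lower genes named from these lists had positive values under that scaling.

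**Figure D5:**
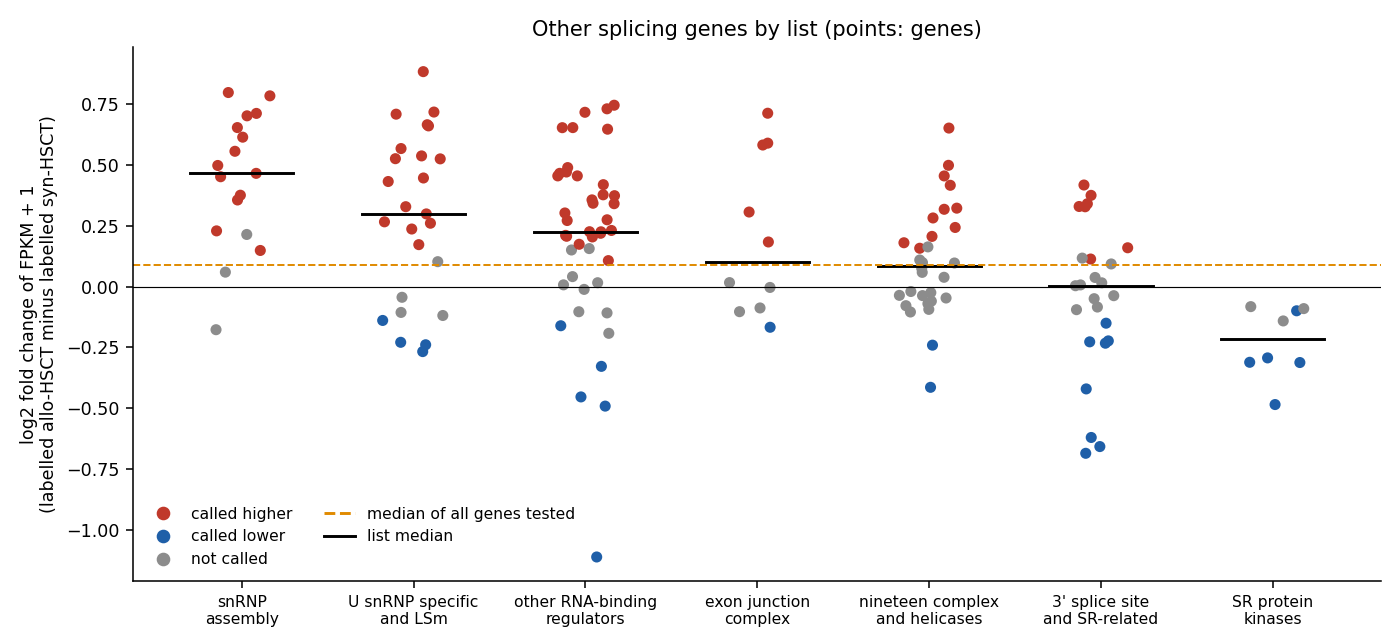
Log2 fold change of FPKM + 1 (vertical axis, libraries labelled allo-HSCT minus those labelled syn-HSCT) of each gene (points) on 7 lists of other splicing genes, with the list median as a line. The snRNP assembly median is 0.47 and that of the SR protein kinases is -0.22 as deposited, which turns positive after scaling to the CD3 chains.

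Cell type and cell cycle markers differed between the same groups. All 15 cycling-cell genes were called higher, with a sum of 943 to 976 FPKM in the libraries labelled allo-HSCT and 501 to 524 FPKM in those labelled syn-HSCT. All 8 T cell markers were called lower, with a sum of 531 to 545 FPKM in the libraries labelled allo-HSCT and 1078 to 1136 FPKM in those labelled syn-HSCT. Cd4 itself averaged 76.2 ± 2.72 FPKM in the libraries labelled allo-HSCT and 183 ± 3.40 FPKM in those labelled syn-HSCT (SD, n = 3 each). These T cell transcripts were detected in both groups. In the libraries labelled allo-HSCT, the 9 erythroid markers summed to 409 to 427 FPKM, the 8 granulocyte markers to 3436 to 3577, the 8 macrophage markers to 1296 to 1344 and the 4 progenitor markers to 133 to 137. In those labelled syn-HSCT, the erythroid sum was 9.49 to 12.2 FPKM, the granulocyte sum 1030 to 1173, the macrophage sum 330 to 366 and the progenitor sum 21.3 to 27.6. Every gene of these 4 lists was called higher. Of the 8 B and plasma cell markers, 6 were called lower, with a sum of 506 to 526 FPKM in the libraries labelled allo-HSCT and 824 to 850 FPKM in those labelled syn-HSCT. Both CD8 markers were called lower, at 1.37 to 1.57 FPKM in the libraries labelled allo-HSCT and 13.9 to 15.6 FPKM in those labelled syn-HSCT. The dendritic, NK and megakaryocyte sums stayed under 40 FPKM in each library, with 2 of 4 dendritic genes called higher and 1 lower, 1 of 3 NK genes higher and 2 lower, and 2 of 3 megakaryocyte genes higher and 0 lower. No marker was at 0 in any library. The part of other cells and of cycling cells in the changes of the spliceosome and hnRNP genes was not tested.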

How the data were processed

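Values were analysed as deposited. Libraries were made from rRNA-depleted total RNA, per the labels' protocols. The deposited table holds 1 FPKM value per gene and library, a unit read from the values (RPKM is possible, since the sources used here do not say whether fragments or reads were counted). The submitters' processing notes name limma; how reads were aligned and counted, and to which build, is not given in the sources used here. FPKM steps gave an implied depth of 15.68 to 16.25 M reads in the libraries labelled allo-HSCT and 14.84 to 16.96 M in those labelled syn-HSCT. The median squared difference between replicates of a group was 2.46 to 3.54 times that given by counting error alone.

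Genes with at least 1 FPKM in 3 libraries (13235) entered a limma fit (version 3.58.1, R 4.3.3) of log2(FPKM + 1), with moderated variances following a trend and a Benjamini-Hochberg threshold of 0.05. This step was tested on simulated reads in which few genes changed, up and down alike. That simulation does not cover broad shifts such as those between these groups. Log2 fold changes on this scale understate changes of low genes. Coordinates and transcripts are from GENCODE M21 (GRCm38), in which 15663 gene IDs were found. Copies were matched with BLAST+ 2.17.0 (at least 85% identity over 100 bases). Tables and plots used Python 3.11.15, pandas 2.3.3 and matplotlib 3.10.9. Alternatives were other scalings, filters and pseudocounts, no trend, a replicate block and leaving out each library. Adding pseudogene reads was chosen after seeing the data.

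Members, lists and pairs were chosen with earlier results of these data known. The genes named were, per family, the 3 highest levels, the 2 largest rises and 2 largest falls past the test, both genes of each pair and members under the filter, and per list up to 2 rises and 2 falls. Further genes were named after their values were seen. Values of a few genes covered by the rule are not reported here.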

Additional observations from a re-analysis of the deposited data

How the results depend on the processing

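Of the 52 higher members, 8 lost their call under equal upper quartiles, and Hnrnpdl, Hnrnpul2 and Prpf40b were also lost under several other settings. Scaling to the CD3 chains, which moves the median of all genes to 1.02, gave 11404 of all genes higher and 546 lower, 0 members lower, and 155 higher and 0 lower among the other splicing lists (83 and 24 as deposited). Of 157 list genes, 41 were lower under quantile normalization and under rescaling without immunoglobulin and other-cell genes. Equal upper quartiles gave 45 and subtracting the median gave 44. Of all 13235 genes tested, 4298, 4175, 4332 and 4367 were called lower under these scalings in that order, against 3525 as deposited. Values of named genes that changed sign under CD3 scaling were 0.742 for Srsf5, 0.679 for Prpf39, 0.847 for Prpf38b, 0.845 for Prpf6, 0.852 for Prpf18, 0.961 for Prpf4b, 0.889 for Sf3b1, 0.967 for Hnrnpa3, 0.906 for Hnrnph3, 0.577 for Clk1, 0.695 for Clk3, 0.729 for Clk2, 0.740 for Clk4, 0.583 for Rbm3, 0.602 for Rnpc3, 0.375 for Rnps1, 0.804 for Slu7, 0.808 for Snrnp70, 0.652 for Syf2, 0.224 for U2af1l4 and 0.799 for Upf3a. Hnrnpl was -0.013 under equal upper quartiles and -0.001 with the median subtracted, and Srsf11 was -0.047, -0.033 and -0.037 under equal upper quartiles, rescaling and median subtraction. Hnrnpa3 was 0.393 with pseudogene reads added, since its copies were higher. Leaving out each replicate gave 48 to 51 members higher and 5 to 8 lower, 4984 to 5192 of all genes higher and 3233 to 3331 lower, and 73 to 80 list genes higher and 19 to 23 lower. The 8 ratios kept their sign when single replicates were left out. Same-numbered replicates did not deviate together (correlations of -0.031, 0.016 and -0.054), and the replicate block gave 49 members higher and 6 lower, 5230 and 3443 of all genes, and 77 and 20 on the other lists. The cause of the differences between the groups was not tested. Each group has its own donor strain by label, so donor strain and transplant type cannot be told apart here. The planned Snrpn to Snrpb ratio was not run, because Snrpn was not analysed here. The lowest tested member rested on 105 implied reads in its shallowest library.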
